A study of Mus musculus with 15 samples.

Results

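Androgen-responsive target genes were followed across 3 Plag1 genotypes in the mouse epididymis. They are Azgp1, Sord, Odc1, Fkbp5, Tsc22d3, Zbtb16, Ndrg1, Rhox5 and Spdef, taken by gene symbol as 9 of the 41591 gene IDs in the count table. RNA of the whole epididymis was sequenced from 15 mice aged 7 weeks, 1 library per animal and 5 animals per genotype. KO mice were Plag1 -/-, HET mice carried 1 mutant allele (Plag1 -/+) and WT mice were wild type. The Plag1 protein is a transcription factor with zinc fingers. All 3 genotypes carried the same strain label, Brown Swiss, and the labels do not say how the allele was made or which exons it affects. The organs were teased apart and rinsed with saline to wash out sperm, so each library mixes RNA of every cell type of the organ. Libraries are named by genotype and animal number, such as KO-738.

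Androgens act through a nuclear hormone receptor, which waits in the cytoplasm with heat shock protein chaperones until hormone binds, then enters the nucleus and binds DNA. The epididymis, where sperm mature and are stored, depends on androgens for its size and for the secretory activity of its principal cells. Several genes that androgens raise in other tissues also respond to glucocorticoids, because both hormones act through closely similar DNA elements.

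Library totals were 25.3 to 42.0 M counts (KO), 23.6 to 33.8 M counts (HET) and 20.3 to 27.8 M counts (WT). Plag1 was 8.32 ± 0.97 CPM in KO and 12.7 ± 0.87 CPM in WT libraries (SD, n = 5 each), a log2 fold change of -0.61 ± 0.10 (SE, edgeR adjusted p = 0.00493). CPM values use TMM-normalised library sizes. The tissue label was checked on 20 marker genes of the initial segment and caput, the upstream part of the duct. All 20 were measured in these libraries and they summed to 79702 to 99586 CPM over the KO libraries, 91102 to 107713 CPM over the HET libraries and 84726 to 98242 CPM over the WT libraries. The library KO-738 stood apart from the other KO libraries: on the first principal component it lay at -17.8, inside the WT range of -19.9 to -11.0, while the other 4 lay between 26.8 and 48.5. KO-738 and HET-693 were the libraries with over 1% of counts from ribosomal RNA genes. Results that rest on KO-738 are given with and without it. Because KO-738 was singled out for lying near the WT libraries, fits without it favour larger KO differences and are only a description. Over all genes 2923 of 19539 passed in KO against WT without it, against 1163 of 19388 with it. KO-739 had a skeletal muscle marker sum of 4348 CPM, against at most 94.2 CPM in the other libraries, and KO-695 a fat cell marker sum of 376 CPM, against at most 156 CPM in the other libraries. Animals numbered below 700 were 3 KO mice and 2 HET mice and no WT mouse, and the labels do not say what the numbers mean.

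The 9 genes spanned a wide range of expression (the plot of the 9 genes by library). Per kilobase of exon, Odc1 was the highest at a mean of 28.5 CPM per kb over the 15 libraries, and its lowest library (22.6) was above the highest library of Ndrg1 (18.3). Ndrg1 averaged 15.9, Tsc22d3 14.0 and Sord 10.9 CPM per kb, and the library ranges of these neighbours overlapped. Below them came Fkbp5 at 4.82, Azgp1 at 3.08 and Zbtb16 at 2.97 CPM per kb, again with overlapping ranges. Rhox5 averaged 0.543 CPM per kb and its highest library (1.73) stayed below the lowest of Zbtb16 (2.68). Spdef was the lowest at 0.0125 CPM per kb, and each of its libraries was below every Rhox5 library. Rhox5 and Spdef did not pass the filter on low counts, so 7 of the 9 genes were tested.

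**Figure D1:**
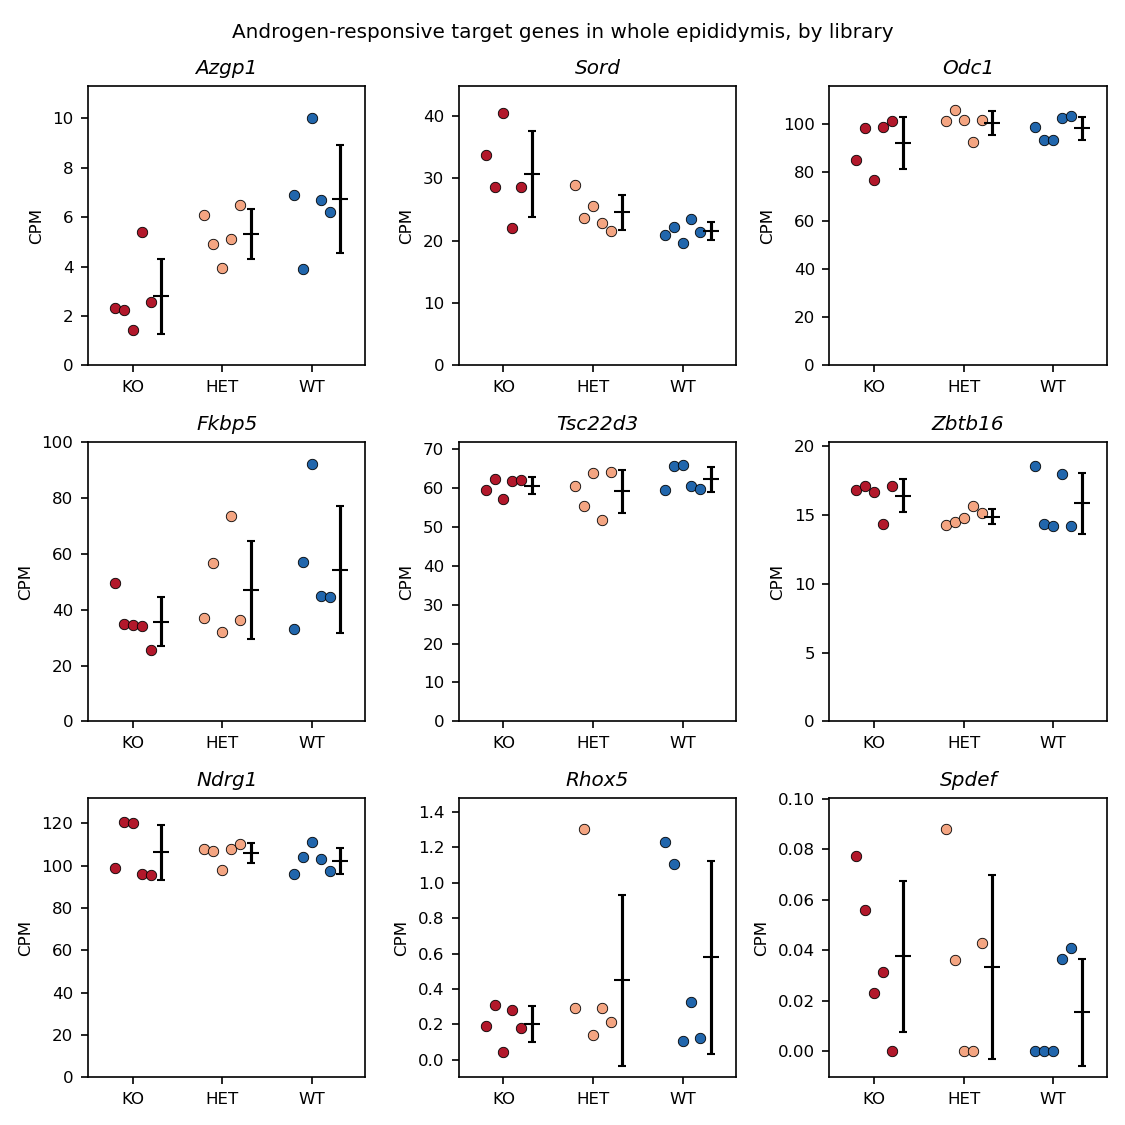
Expression of the 9 androgen-responsive target genes in CPM (vertical axes, one scale per gene) in 5 KO, 5 HET and 5 WT libraries. Points are libraries in order of animal number, and bars are the mean ± SD. Azgp1 lies lowest in KO, at a mean of 2.80 CPM, and Sord highest in KO, at a mean of 30.7 CPM, and in both the fourth KO point (KO-738) lies among the WT points.

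In KO against WT, Azgp1 fell, Sord rose, and the other 5 tested genes did not pass the threshold of 0.05 on the adjusted p. Of all 19388 tested genes 6.00% passed it, 4.40% higher and 1.60% lower in KO. The count of 2 in 7 is a description, because the genes were chosen with results of these libraries known. For none of the 9 genes did the KO and WT ranges separate, which they did for 4.21% of all tested genes. The median log2 fold change of the 7 genes was -0.04, with 3 of 7 positive, and that of all tested genes was -0.01. The count was 2 by DESeq2 and by limma voom with quality weights, 1 with no filter on low counts, and 0 with only the 2 genotypes compared, with the animal number range as a term and within animals numbered above 700. Over all genes 1982 of 34343 passed by DESeq2, 1634 of 19388 by limma voom and 848 of 34343 with no filter. It was 287 of 18873 with the 2 genotypes alone, 177 of 19388 with the number term and 0 of 19801 above 700. The member count of 0 above 700 was thus fixed and says nothing about these genes. By edgeR 2 of the 7 members had an unadjusted p under 0.05, as had 23.6% of all genes.

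**Figure D2:**
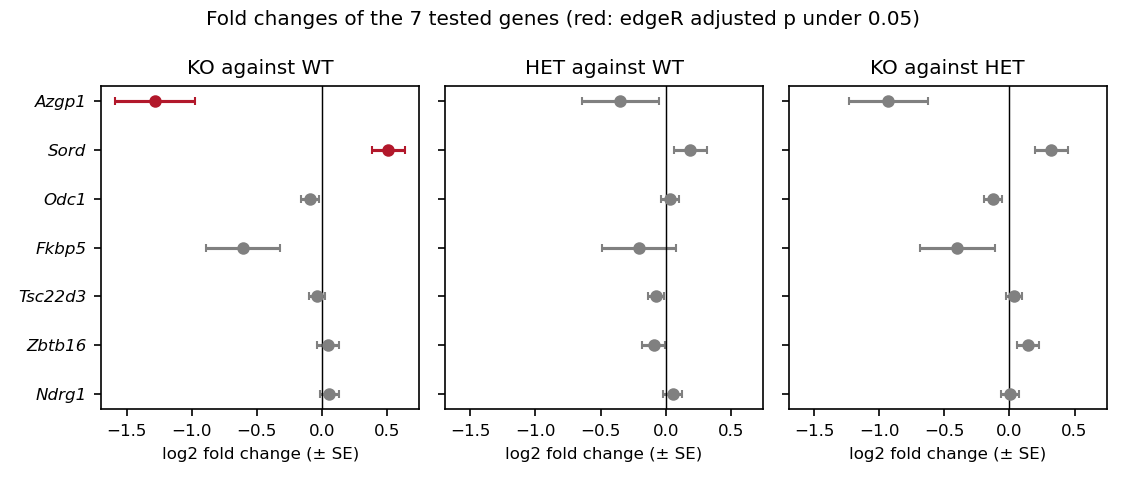
Log2 fold changes (horizontal axes, points with SE bars) of the 7 tested genes for KO against WT, HET against WT and KO against HET from 1 edgeR fit of 15 libraries. Red marks an adjusted p under 0.05, which Azgp1 (-1.28) and Sord (0.51) reached in KO against WT, and grey marks genes that did not pass.

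Azgp1 (NCBI Gene 12007; GRCm38.p6 chromosome 5, 137981521 to 137990233, plus strand) encodes zinc-alpha-2-glycoprotein, a secreted protein with an MHC class I-like fold that promotes lipid breakdown in fat cells. It was 2.32, 2.24, 1.43, 5.42 and 2.57 CPM in KO-694, KO-695, KO-696, KO-738 and KO-739, against 6.91, 3.91, 10.0, 6.69 and 6.19 CPM in WT-709, WT-719, WT-720, WT-723 and WT-726. The HET libraries had 6.09, 4.92, 3.95, 5.13 and 6.49 CPM (HET-692, HET-693, HET-715, HET-718 and HET-735). Thus 4 of the 5 KO libraries were below every WT and every HET library, and KO-738 lay among them. The mean was 2.80 ± 1.53 CPM in KO and 6.75 ± 2.19 CPM in WT libraries (SD, n = 5 each), so the KO mean was 41.4% of the WT mean. The log2 fold change was -1.28 ± 0.30 (edgeR adjusted p = 0.0277). In a bulk sample, fewer cells that make the transcript and less transcript per cell cannot be told apart.

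The Azgp1 call depended on which libraries were in the fit. Without KO-738 the log2 fold change was -1.67 (edgeR adjusted p = 0.000521). KO-738 lay among the WT points, so a larger difference without it follows from that choice. The call was lost when KO-694, KO-695, KO-696, WT-709, WT-720 or WT-723 was left out, with edgeR adjusted p-values of 0.0569, 0.0656, 0.0671, 0.0581, 0.0644 and 0.0568. Over all genes 661, 565, 318, 435, 547 and 444 passed in these fits, against 1163 with all libraries, so such losses were common to many genes. The Azgp1 call was also lost with no filter on low counts (edgeR adjusted p = 0.0539) and with only the 2 genotypes compared (edgeR adjusted p = 0.0849). With the animal number range as a term the log2 fold change was -1.07 (edgeR adjusted p = 0.123). Within animals numbered above 700 it was -0.77 (edgeR adjusted p = 0.350), from 2 KO and 5 WT libraries. Counts per library were low, between 60 and 281, and the biological coefficient of variation of Azgp1 between animals of a genotype was 32.4%, above that of 92.2% of the 3643 genes within 2-fold of its level.

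Sord (NCBI Gene 20322; GRCm38.p6 chromosome 2, 122234839 to 122265337, plus strand) encodes sorbitol dehydrogenase, which turns sorbitol into fructose, a fuel of sperm. It was 33.8, 28.6, 40.4, 22.0 and 28.6 CPM in KO-694, KO-695, KO-696, KO-738 and KO-739, against 21.0, 22.2, 19.6, 23.5 and 21.4 CPM in WT-709, WT-719, WT-720, WT-723 and WT-726. The HET libraries had 28.9, 23.7, 25.6, 22.9 and 21.6 CPM, in the order given for Azgp1. Here 4 of the 5 KO libraries were above every WT library, and KO-738 again lay in the WT range. The mean was 30.7 ± 6.88 CPM in KO and 21.5 ± 1.47 CPM in WT libraries (SD, n = 5 each), so the KO mean was 142% of the WT mean. The log2 fold change was 0.51 ± 0.13 (edgeR adjusted p = 0.0313).

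Without KO-738 the Sord log2 fold change was 0.61 (edgeR adjusted p = 0.00147), with the limit given for Azgp1. The call was lost when KO-694, KO-695 or KO-696 was left out, with edgeR adjusted p-values of 0.0621, 0.0512 and 0.0800. It was also lost without any one of the 5 WT libraries, where the edgeR adjusted p ran from 0.0546 to 0.0716 (the plot of fits that leave out 1 library). Over all genes 661, 565 and 318 passed without KO-694, KO-695 or KO-696, against 1163 with all libraries. Without 1 WT library 435 to 636 passed. With only the 2 genotypes compared the log2 fold change was 0.52 (edgeR adjusted p = 0.0807). With the animal number range as a term the log2 fold change was 0.31 (edgeR adjusted p = 0.211). Within animals numbered above 700 it was 0.24 (edgeR adjusted p = 0.335).

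**Figure D3:**
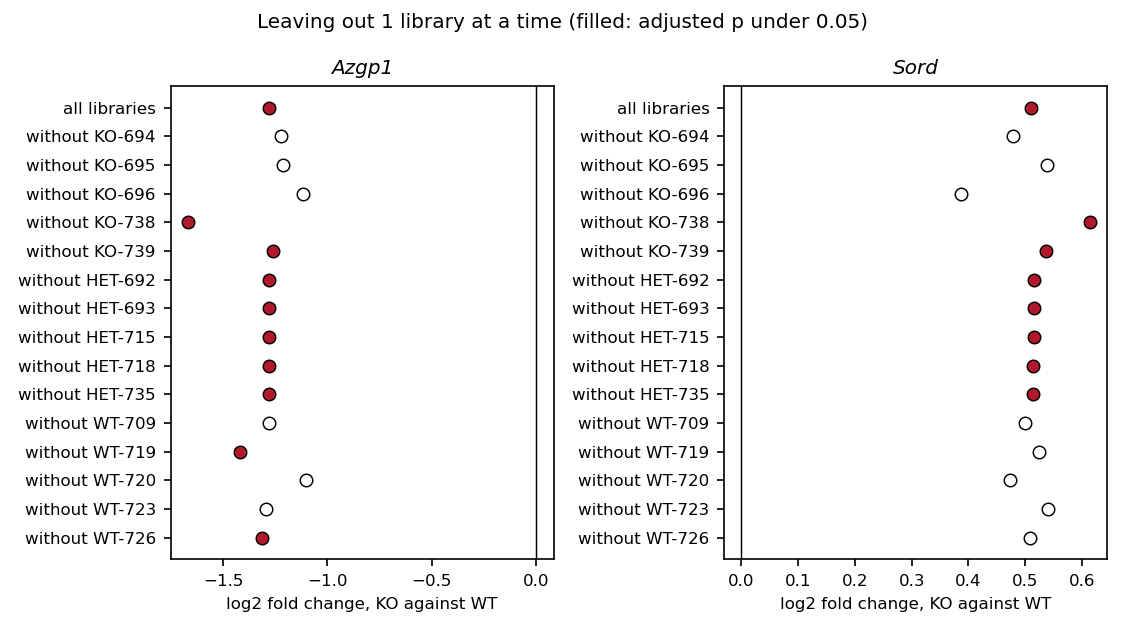
Log2 fold change of Azgp1 and Sord in KO against WT (horizontal axes) with all 15 libraries and after leaving out each library in turn (rows). Filled points have an edgeR adjusted p under 0.05 and open points do not. All fits keep the direction, from -1.67 to -1.10 for Azgp1 and from 0.39 to 0.61 for Sord, and the call is lost in 6 of the 15 fits for Azgp1 and in 8 for Sord. Over all genes 318 (without KO-696) to 2923 (without KO-738) passed in these fits, against 1163 with all libraries.

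The promoter windows of these 2 genes are shown because they were the members that passed the test. The sequences are those of RefSeq. Each runs from 250 bases before to 50 bases after the RefSeq start on GRCm38.p6, plus strand, 5′ to 3′, at chr5:137981271-137981570 for Azgp1 and chr2:122234589-122234888 for Sord. Capitals mark the steroid hormone response half-element AGAACA, here read on the other strand as TGTTCT.
Azgp1: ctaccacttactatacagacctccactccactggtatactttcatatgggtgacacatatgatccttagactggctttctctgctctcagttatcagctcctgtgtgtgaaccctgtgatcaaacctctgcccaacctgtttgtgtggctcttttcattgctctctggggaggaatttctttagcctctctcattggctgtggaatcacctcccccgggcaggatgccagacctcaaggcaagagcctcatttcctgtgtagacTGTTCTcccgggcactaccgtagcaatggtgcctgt
Sord: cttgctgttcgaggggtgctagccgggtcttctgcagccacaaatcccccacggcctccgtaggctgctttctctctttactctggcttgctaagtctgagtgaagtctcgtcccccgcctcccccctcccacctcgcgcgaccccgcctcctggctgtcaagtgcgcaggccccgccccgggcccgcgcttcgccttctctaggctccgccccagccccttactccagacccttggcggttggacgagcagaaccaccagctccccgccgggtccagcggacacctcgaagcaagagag
The search covered both strands for a full palindrome (AGAACA, any 3 bases, TGTTCT), a looser palindrome (GNACA, any 3 bases, TGTNC) and the half-element AGAACA, where the full palindrome holds the half-element and is also a match of the looser one. The Azgp1 window held 1 half-element, with its first base 14 bases after the start base, and the Sord window held none of the 3 motifs. Windows were given for 7 of the 9 genes, 9 windows in all, since Tsc22d3 has several starts; Ndrg1 and Zbtb16 had none. The half-element occurred in 4 of these 9 windows (Azgp1, Rhox5, Spdef and 1 start of Tsc22d3), and in 19.0% of all 32851 RefSeq promoter windows of the same length. Neither palindrome occurred in them, and across all windows the full palindrome was present in 0.00913% and the looser one in 0.475%. A match is a run of letters, not a bound site, and enhancers outside the windows were not searched.

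Markers of other cells were summed in each library and set beside both genes (the plot of the 2 genes against summed markers). The 15 listed sperm and germ cell genes, all of which were tested and none of which was at 0 throughout, summed to 253, 261, 377, 115 and 167 CPM in KO-694, KO-695, KO-696, KO-738 and KO-739. Their sums ran from 149 to 229 CPM in the HET libraries and from 108 to 185 CPM in the WT libraries. In KO against WT 5 of the 15 rose and 0 fell, where 4.40% of all tested genes rose and 1.60% fell. Sord was highest in KO-696, which also had the highest germ cell sum. Among the HET libraries HET-692 had the highest germ cell sum (229 CPM) and the highest Sord (28.9 CPM), both above every WT library. In KO-739 the germ cell sum was inside the WT range while Sord (28.6 CPM) was above every WT library. The 3 genes most like Sord over the 15 libraries were Fank1 (Pearson r = 0.97), Ddx4 (r = 0.96), a germ cell RNA helicase of that marker list, and Fhl4 (r = 0.96). These values describe libraries that share genotype and makeup. The part of germ cell RNA in the Sord difference was not tested.

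For Azgp1 the markers of the downstream duct were set beside it. The 14 listed corpus and cauda principal cell genes summed to 5530, 6359, 4064, 6182 and 5451 CPM in KO-694, KO-695, KO-696, KO-738 and KO-739. Sums were 6129 to 6647 CPM over the HET libraries and 5951 to 7250 CPM over the WT libraries. Of the 13 tested, 3 rose and 5 fell in KO against WT, where 4.40% of all tested genes rose and 1.60% fell. Among the 4 with the smallest p were Upk1b (0.58 ± 0.10, edgeR adjusted p = 0.00668) and Krt20, a keratin (1.68 ± 0.32, adjusted p = 0.00857), which rose. The others were Aqp5, a water channel (-0.73 ± 0.15, edgeR adjusted p = 0.0126), and Car4, a carbonic anhydrase (-0.63 ± 0.16, adjusted p = 0.0320), which fell. Krt20 and Aqp5 were low, at means of 0.988 and 0.921 CPM in KO and 0.304 and 1.53 CPM in WT libraries. Gpx3 and Slc38a5 had the highest CPM of the 14 and weigh most in the sum. Gpx3 fell, at 2094 ± 799 CPM in KO and 3335 ± 375 CPM in WT libraries (log2 fold change -0.67 ± 0.19, edgeR adjusted p = 0.0454). Slc38a5 did not pass, at 2628 ± 784 and 2309 ± 289 CPM (0.19 ± 0.16, edgeR adjusted p = 0.525). The sum can therefore hide changes of single genes. In KO-695 the sum was inside the WT range while Azgp1 (2.24 CPM) was below every WT library. The genes most like Azgp1 were Cbs (r = 0.94), Syn2 (r = 0.94) and Ramp1 (r = 0.93), a subunit of the calcitonin gene-related peptide receptor, which also fell in KO (-0.76 ± 0.19, edgeR adjusted p = 0.0320). The part of duct segment makeup in the Azgp1 difference was not tested.

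Markers of the connective tissue and blood vessels also differed between the same libraries. In KO against WT 9 of 12 fibroblast, 6 of 7 endothelial and 5 of 8 macrophage markers rose and 0 of each fell. Among all tested genes 4.40% rose and 1.60% fell. The fibroblast sum ran from 2163 (KO-738) to 3877 CPM over the KO libraries, from 1955 to 2397 CPM over the HET libraries and from 1758 to 2208 CPM over the WT libraries. The endothelial sum ran from 146 (KO-738) to 212 CPM over the KO libraries, from 96.4 to 133 CPM over the HET libraries and from 88.4 to 113 CPM over the WT libraries. The macrophage sum ran from 101 (KO-738) to 180 CPM over the KO libraries, from 99.2 to 115 CPM over the HET libraries and from 82.9 to 103 CPM over the WT libraries. In all 3 lists KO-738 was the lowest KO library, and none of the markers was at 0 in all libraries. Lists of other cells differed. In KO against WT 3 of 7 testis somatic, 2 of 8 nerve and Schwann cell and 1 of 9 fat cell markers rose, and 2 of 7 clear cell markers fell. No gene passed among 8 smooth muscle, 7 basal cell, 7 skeletal muscle and 20 initial segment and caput markers. The part of any of these cells in the Sord and Azgp1 differences was not tested.

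**Figure D4:**
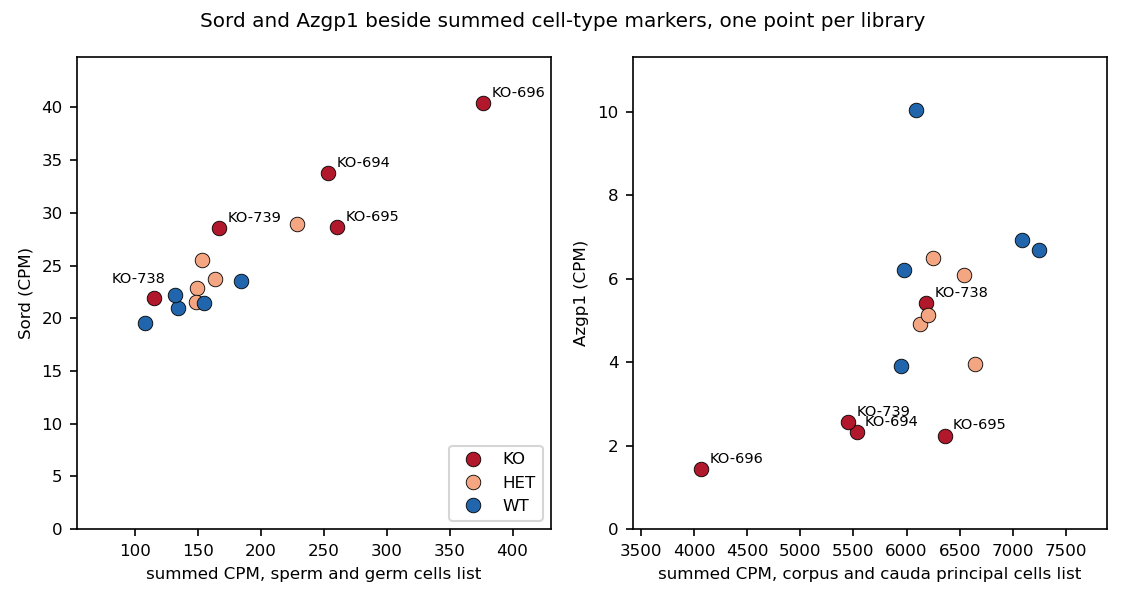
Sord against the summed CPM of 15 sperm and germ cell genes (left) and Azgp1 against the summed CPM of 14 corpus and cauda principal cell genes (right), 1 point per library in KO, HET and WT. The KO points are named. On the left KO-696 is highest on both axes (377 and 40.4 CPM), and on the right it is lowest on both (4064 and 1.43 CPM).

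Odc1 (NCBI Gene 18263; GRCm38.p6 chromosome 12, 17544808 to 17551502, plus strand) encodes ornithine decarboxylase, the rate-limiting enzyme of polyamine synthesis. It was 85.1, 98.4, 76.8, 98.9 and 101 CPM in KO-694, KO-695, KO-696, KO-738 and KO-739, against 98.8, 93.3, 93.4, 103 and 103 CPM in WT libraries in order of number. The libraries KO-694 and KO-696 were below every WT library and the other 3 KO libraries lay within the WT range. The mean was 92.1 ± 10.6 CPM in KO, 101 ± 4.93 CPM in HET and 98.3 ± 4.85 CPM in WT libraries (SD, n = 5 each). In KO against WT the log2 fold change was -0.09 ± 0.07 (edgeR adjusted p = 0.449), with an approximate 95% interval of -0.24 to 0.06. A small nucleolar RNA gene lies inside Odc1 on the same strand, and mouse Odc1 also has processed copies elsewhere. How reads shared with them were counted is not given in the sources used here. Among 15 tested genes of the polyamine pathway 0 passed edgeR's threshold in KO against WT, where 6.00% of all tested genes passed. An unadjusted p under 0.05 by edgeR was found for 4 of the 15, against 23.6% of all tested genes. The smallest p in the pathway was that of Smox, spermine oxidase, at -0.37 ± 0.13 (edgeR adjusted p = 0.0853). For the polyol and fructose pathway of Sord 0 of 10 passed. The 1 gene with an unadjusted p under 0.05 was Akr1b8, an aldose reductase-like enzyme, at 0.28 ± 0.11 (edgeR adjusted p = 0.150). At the share of 6.00%, counts of 0 in lists of 15 and 10 genes say little about these pathways.

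Fkbp5 (NCBI Gene 14229; GRCm38.p6 chromosome 17, 28398753 to 28486149, minus strand) encodes FKBP51, a co-chaperone of steroid receptors that both androgens and glucocorticoids induce. It was 49.7, 34.7, 34.4, 34.2 and 25.4 CPM in KO-694, KO-695, KO-696, KO-738 and KO-739, against 33.1, 56.9, 92.0, 44.8 and 44.6 CPM in WT-709, WT-719, WT-720, WT-723 and WT-726. The HET libraries had 36.9, 56.6, 31.9, 73.4 and 36.2 CPM. The groups overlapped widely, and WT-720 was the highest library and KO-739 the lowest. The mean was 35.7 ± 8.74 CPM in KO, 47.0 ± 17.6 CPM in HET and 54.3 ± 22.7 CPM in WT libraries (SD, n = 5 each).

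The log2 fold change of Fkbp5 in KO against WT was -0.61 ± 0.29 (edgeR unadjusted p = 0.0517, adjusted p = 0.215), with an approximate 95% interval of -1.23 to 0.02. Leaving out 1 library at a time moved it between -0.75 and -0.33. Its biological coefficient of variation between animals of a genotype was 31.0%, above that of 99.2% of the 5119 tested genes within 2-fold of its level, whose median was 8.23%. The genes most like it over the 15 libraries were Fads6 (r = 0.88), Mink1 (r = 0.86) and Pbx4 (r = 0.79). Several other annotated genes overlap the span of Fkbp5 on either strand. Whether they share exon bases with Fkbp5 was not checked and the strand setting of the counting is unknown, so any effect on its counts is unknown.

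Tsc22d3 (NCBI Gene 14605; GRCm38.p6 chromosome X, 140539528 to 140600522, minus strand) encodes GILZ, a glucocorticoid-induced leucine zipper protein. It was 59.4, 62.3, 57.2, 61.6 and 62.1 CPM in KO-694, KO-695, KO-696, KO-738 and KO-739, against 59.3, 65.7, 65.8, 60.6 and 59.8 CPM in WT libraries in order of number. The ranges overlapped, and the log2 fold change in KO against WT was -0.04 ± 0.06 (edgeR adjusted p = 0.736), with an approximate 95% interval of -0.17 to 0.09. Zbtb16 (NCBI Gene 235320; GRCm38.p6 chromosome 9, 48651797 to 48836225, minus strand) encodes PLZF, a zinc finger repressor induced by glucocorticoids and androgens. It was 16.8, 17.1, 16.7, 14.3 and 17.1 CPM in the KO libraries in order of number, against 18.5, 14.3, 14.2, 18.0 and 14.2 CPM in WT libraries. The WT libraries fell apart into 2 high (WT-709 and WT-723) and 3 low, and KO-738 alone among the KO libraries was as low as those 3. Its log2 fold change in KO against WT was 0.05 ± 0.08 (edgeR adjusted p = 0.774), with an approximate 95% interval of -0.14 to 0.23.

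Fkbp5, Tsc22d3 and Zbtb16 are all known as glucocorticoid-induced genes. After genotype means were subtracted, Pearson's r across the 15 libraries was -0.30 for Fkbp5 with Tsc22d3 (Spearman's rho = -0.22, two-sided permutation p = 0.360 and 0.488) and -0.34 for Fkbp5 with Zbtb16 (rho = -0.20, permutation p = 0.331 and 0.524). It was -0.34 for Zbtb16 with Tsc22d3 (rho = -0.33, permutation p = 0.147 and 0.208). Adjusted over 21 pairs, the permutation p for r was 0.686, 0.686 and 0.626. Without the 2 libraries farthest from the median of the first gene, r was -0.28, -0.36 and -0.24. Of the 21 pairs of tested members 0 passed after adjustment. The smallest p was that of Azgp1 with Sord, at r = -0.74 and rho = -0.58 (two-sided permutation p = 0.0143 for r and 0.0381 for rho, adjusted over 21 pairs p = 0.301 and 0.745), and r was -0.66 without the 2 libraries farthest from the Azgp1 median. Without KO-738 and HET-693 it was -0.52 (permutation p adjusted over 21 pairs = 0.668). Of 18 other tested glucocorticoid-responsive genes 0 passed edgeR's threshold in KO against WT, against 6.00% of all tested genes. An unadjusted p under 0.05 by edgeR was found for 4 of the 18, against 23.6% of all. The smallest p was that of Sgk1, a kinase, at -0.34 ± 0.11 (edgeR adjusted p = 0.0725).

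Ndrg1 (NCBI Gene 17988; GRCm38.p6 chromosome 15, 66929318 to 66969641, minus strand) encodes a cytoplasmic stress-response protein that both androgens and hypoxia induce. It was 98.9, 121, 120, 96.1 and 95.6 CPM in KO-694, KO-695, KO-696, KO-738 and KO-739, against 95.9, 104, 111, 103 and 97.3 CPM in WT libraries in order of number. The libraries KO-695 and KO-696 were above every WT and HET library, and the other 3 KO libraries were in the lower part of the WT range or just below it. The log2 fold change in KO against WT was 0.06 ± 0.07 (edgeR adjusted p = 0.680), with an approximate 95% interval of -0.10 to 0.21, and it was -0.03 with the animal number range as a term. Of 19 hypoxia-responsive genes 0 passed edgeR's threshold and 0 had an unadjusted p under 0.05, against 6.00% and 23.6% of all tested genes. The smallest p among them was that of Ldha, lactate dehydrogenase, at 0.24 ± 0.13 (edgeR adjusted p = 0.269). The transcripts Gm17035 and Gm2895 overlap the span of Ndrg1 on the other strand. Whether they share exon bases with Ndrg1 was not checked, so any effect on its counts is unknown.

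The remaining 2 genes had low counts, with Rhox5 above the detection floor of 3 counts in most libraries and Spdef in none. Rhox5 (NCBI Gene 18617; GRCm38.p6 chromosome X, 37754608 to 37808878, plus strand), an X-linked homeobox gene of the reproductive tract that androgens raise in Sertoli cells, had 165 counts in all and 2 to 36 per library. It was 0.194, 0.308, 0.0462, 0.282 and 0.179 CPM in the KO libraries in order of number, against 1.23, 1.10, 0.107, 0.329 and 0.122 CPM in the WT libraries. The HET libraries had 0.294, 1.30, 0.141, 0.291 and 0.215 CPM. Rhox5 was above 1 CPM in WT-709, WT-719 and HET-693 and at most 0.329 CPM in the other 12 libraries. Fitted without the filter, its log2 fold change in KO against WT was -1.49 ± 0.80 (edgeR adjusted p = 0.377). Spdef (NCBI Gene 30051; GRCm38.p6 chromosome 17, 27714446 to 27731003, minus strand), an ETS-family factor of prostate and other secretory epithelia, had 13 counts in all. It had 2, 2, 1, 1 and 0 counts in KO, 3, 1, 0, 0 and 1 in HET, and 0, 0, 0, 1 and 1 in WT libraries. A count of 0, as in 6 libraries, allows up to 3 counts, or 0.0715 to 0.148 CPM of the unscaled library total depending on the library, which covers counting error only. No fold change is given for Spdef because no library exceeded that floor.

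In HET against WT 0 of the 7 tested genes passed, against a background of 0% of all tested genes. No member had HET and WT ranges that separated, against 1.04% of all tested genes. By edgeR 0 of the 7 had an unadjusted p under 0.05, where 4.40% of all tested genes had, and DESeq2 and limma voom also called 0. Over all genes DESeq2 called 1 of 34343 and limma voom 0 of 19388. Azgp1 was 5.32 ± 1.01 CPM in HET and 6.75 ± 2.19 CPM in WT libraries (SD, n = 5 each), a log2 fold change of -0.35 ± 0.30 (edgeR adjusted p = 0.981) with an approximate 95% interval of -0.99 to 0.29. Sord was 24.5 ± 2.86 CPM in HET and 21.5 ± 1.47 CPM in WT libraries, a log2 fold change of 0.19 ± 0.13 (edgeR adjusted p = 0.981) with an approximate 95% interval of -0.09 to 0.47, and 3 of the 5 HET libraries were above every WT library. The other 5 genes had log2 fold changes between -0.21 (Fkbp5) and 0.05 (Ndrg1). The Fkbp5 value was 0.05 without WT-720. The median of the 7 was -0.07, against 0.01 for all tested genes.

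In KO against HET 0 of the 7 passed in edgeR, against 1.96% of all tested genes (1.61% higher and 0.351% lower in KO). No member had KO and HET ranges that separated, against 3.60% of all tested genes. At an unadjusted p under 0.05 there were 2, Azgp1 and Sord, where 20.8% of all tested genes had one, and DESeq2 called 1 (Azgp1) and limma voom 2. Over all genes DESeq2 called 1258 of 34343 and limma voom 1907 of 19388. Azgp1 was 2.80 ± 1.53 CPM in KO and 5.32 ± 1.01 CPM in HET libraries (SD, n = 5 each), a log2 fold change of -0.93 ± 0.30 (edgeR adjusted p = 0.105). Without KO-738 it was -1.31 (edgeR adjusted p = 0.00379). Sord was 30.7 ± 6.88 CPM in KO and 24.5 ± 2.86 CPM in HET libraries, a log2 fold change of 0.32 ± 0.13 (edgeR adjusted p = 0.158). Without KO-738 it was 0.43 (edgeR adjusted p = 0.0162). Zbtb16 had 4 of 5 KO libraries above every HET library, at 16.4 ± 1.18 CPM in KO and 14.9 ± 0.54 CPM in HET libraries, and a log2 fold change of 0.14 ± 0.08 (edgeR adjusted p = 0.360). KO against WT and KO against HET share the KO libraries, so their values are not separate evidence.

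Of all tested genes 4.40% rose and 1.60% fell in KO against WT. Of 15 tested genes for steroid enzymes 2 rose and 0 fell. They were Hsd11b1, which regenerates active glucocorticoid (0.40 ± 0.09, edgeR adjusted p = 0.0258), and Sult1e1, an estrogen sulfotransferase (0.57 ± 0.14, edgeR adjusted p = 0.0292). Of 30 tested receptor chaperones and coregulators 1 fell and 0 rose, and it was Gata3 (-0.38 ± 0.09, edgeR adjusted p = 0.0272), a transcription factor.

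Other androgen-responsive genes were read from lists by tissue. Of 78 other genes that androgens regulate in prostate cells, 9 rose and 1 fell in KO against WT, where 4.40% of all tested genes rose and 1.60% fell. The median log2 fold change of the 78 was -0.01, equal at this precision to that of all tested genes. The 4 with the smallest p were Steap4, a metalloreductase (0.76 ± 0.10, edgeR adjusted p = 0.00282), Adamts1, a secreted protease (0.42 ± 0.07, adjusted p = 0.00505), Gucy1a1, a guanylate cyclase subunit (0.83 ± 0.16, adjusted p = 0.00828) and Plpp1, a lipid phosphatase (0.59 ± 0.11, adjusted p = 0.00854). The number called was 20 without KO-738, 5 without KO-696, WT-709 or WT-723, and 6 without KO-695, WT-719, WT-720 or WT-726. The number over all genes moved too. It was 2923 of 19539 without KO-738 and 318 of 19461 without KO-696, against 1163 of 19388 with all libraries. In the same comparison 9 of 12 fibroblast, 6 of 7 endothelial and 5 of 8 macrophage markers rose, as given above. The part of these cells in the rise of the prostate genes was not tested.

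Of 11 tested genes that androgens regulate in the epididymis 0 passed by edgeR in KO against WT, against 6.00% of all tested genes. Of these 11, 2 had an unadjusted p under 0.05, as had 23.6% of all tested genes. The smallest p was that of Aqp9, a water and solute channel of principal cells, which was 144 ± 27.0 CPM in KO and 179 ± 14.1 CPM in WT libraries (SD, n = 5 each; log2 fold change -0.32 ± 0.10, edgeR adjusted p = 0.0752). Without KO-738 the number called was 2, and without KO-739 it was 1. Of 7 tested genes that androgens raise in the mouse kidney 2 fell and 0 rose, where 1.60% of all tested genes fell and 4.40% rose. Kap, the kidney androgen-regulated protein, was 0.339 ± 0.16 CPM in KO and 1.35 ± 0.60 CPM in WT libraries (log2 fold change -1.98 ± 0.41, edgeR adjusted p = 0.0137). Its level was low, at 0.196 to 0.595 CPM over the KO libraries, not far above the floor of 0.0715 to 0.148 CPM. Cyp2j13, a cytochrome P450, was 35.9 ± 13.7 CPM in KO and 58.0 ± 5.88 CPM in WT libraries (log2 fold change -0.69 ± 0.19, edgeR adjusted p = 0.0414). The number of kidney genes called was 1 in each fit that left out 1 library, other than the fit without KO-738, where it was 2. In HET against WT 0 genes of any of these androgen lists passed by edgeR, as over all tested genes. An unadjusted p under 0.05 by edgeR was found for 3 of 78, 1 of 11 and 0 of 7, against 4.40% of all tested genes. In KO against HET 6 of the 78 prostate genes rose and 0 fell, 0 of the 11 epididymal genes passed, and Kap fell (-2.21 ± 0.40, edgeR adjusted p = 0.0223) among the 7 kidney genes, at the low level given above. Of all tested genes 1.61% rose and 0.351% fell. Without KO-738 the counts of the prostate, epididymal and kidney lists were 18, 3 and 2. Over all genes 2443 of 19539 passed in that fit, against 380 of 19388 with all libraries. The number of prostate genes called in KO against HET was 0 without KO-696, HET-693, HET-715 or HET-735, 1 without HET-718, 2 without KO-694 and 3 without KO-739. The number of kidney genes called was 0 without KO-696, HET-693, HET-715 or HET-735. Over all genes only 5, 6, 3 and 0 passed in these fits, so counts of 0 there say little about the lists.

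For the other 4 tested members the most alike genes over the 15 libraries are given as a description, because the libraries share genotype, depth and cell makeup. They were Pigu, Ncstn and Atp6v1g3 for Odc1 (Pearson r = 0.87, 0.84 and 0.84), and Foxo4, Saysd1 and Fam43a for Zbtb16 (r = 0.86, 0.84 and 0.81). For Ndrg1 they were Cldn2, Cdca7l and Gtf3c5 (r = 0.84, 0.83 and 0.82), and for Tsc22d3 they were Rad1, Bid and Uck2 (r = 0.76, 0.76 and 0.71). The r of Tsc22d3 to its closest gene was the lowest among the 7 members and that of Sord was the highest.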

How the data were processed

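RNA-seq counts of 15 whole mouse epididymides were used, 5 per Plag1 genotype. Per the labels' protocols, libraries came from a stranded mRNA kit. The deposited values are raw counts per NCBI Gene ID, made by the authors with HISAT2 2.0.5 and featureCounts of Subread 1.4.6p5 on GRCm38.p6, with FastQC, per the submitters' processing notes; the strand setting, the handling of multiply mapped reads and the annotation release are not given in the sources used here. Of 41591 IDs, 40290 (96.9%) were named through a RefSeq table of GRCm38.p6, a further 87 came from GENCODE, and 1214 stayed unnamed. Coordinates come from the RefSeq table, promoter windows from RefSeq sequences of GRCm38.p6, and exon lengths from GENCODE M21, taken as the union of exons.

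Counts were tested with edgeR 4.0.16 in R 4.3.3 (TMM, filterByExpr, robust quasi-likelihood test, two-sided) in 1 fit of 15 libraries that gave each genotype its own mean and left 12 residual degrees of freedom. The Benjamini-Hochberg adjustment ran over 19388 genes and the threshold was 0.05; gene lists were counted, not tested. SE values come from the unshrunk log2 fold change and its F statistic, and approximate 95% intervals from the SE with 12 degrees of freedom. The biological coefficient of variation was 16.3%; libraries held 20.3 to 42.0 M counts, a depth that limits Rhox5 and Spdef. Likeness of genes is Pearson's r of log2 CPM (prior count 2) over 15 libraries. Pairs of members were compared after subtracting genotype means, with 100000 permutations within genotype. Alternatives used DESeq2 1.42.0, limma 3.58.1 (voom with quality weights), other scaling and filters, the 2 genotypes compared alone, the animal number range (split at 700), and leaving out libraries. The edgeR step was tested on simulated counts. Python 3.11.15 served for tables and plots, with pandas 2.3.3, SciPy 1.17.1 and matplotlib 3.10.9.

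The members, gene lists and alternatives were chosen with earlier results of these data known. The text names all 9 members, Plag1, up to 4 called genes per list with the smallest p (or the 1 with the smallest p where 0 passed) and the 3 genes most like a member. Gpx3 and Slc38a5 are named for their weight in a marker sum. The labels name 5 animals per genotype but not litters, days or cages. The p-values set genotype differences against the spread between these animals, which edgeR moderates across genes. Any part of litter, day or cage cannot be told apart from that of genotype. Steroid receptor genes are not reported here.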

Additional observations from a re-analysis of the deposited data

Results flagged for a closer look

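Within the 27 groups of 5 libraries (9 genes in 3 genotypes), 4 values, in 3 libraries (KO-738 with 2 of them, HET-693 and HET-715), lay far from the other 4 of their genotype, with a gap to the nearest over the group's range above 0.71. Chance flags about 1 in 20 groups. Azgp1 was 5.42 CPM in KO-738, against at most 2.57 CPM in the other KO libraries. Zbtb16 was 14.3 CPM in KO-738, against at least 16.7 CPM in the other KO libraries. Rhox5 was 1.30 CPM in HET-693, against at most 0.294 CPM in the other HET libraries. Ndrg1 was 98.0 CPM in HET-715, against at least 107 CPM in the other HET libraries.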

How the results depend on the processing

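Of the 7 tested members, 2 passed in KO against WT with all libraries, where 6.00% of all tested genes passed. The count was 1 with no filter on low counts, and 0 with only the 2 genotypes compared, with the animal number range as a term, and within animals numbered above 700. In that order 848, 287, 177 and 0 passed over all genes, against 1163 with all libraries. The member count was 0 to 2 when 1 library was left out, 0 without KO-694, KO-695, KO-696, WT-709, WT-720 or WT-723 and 1 without WT-719 or WT-726. Over all genes 318 to 661 passed in the fits without 1 of these named libraries. In KO against HET the member count was 2 without KO-738 and HET-693, 1 with DESeq2, 2 with limma voom, and 0 to 2 when 1 library was left out. Over all genes 1660, 1258, 1907 and 0 to 2443 passed there, against 380 with all libraries.

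Directions reversed for small changes. In KO against WT, Ndrg1 was -0.029 with the number range as a term and -0.091 above 700, Zbtb16 was -0.0089 and Odc1 0.030 above 700. In HET against WT, Ndrg1 was -0.00021 with the number term, and Odc1 was -0.017 above 700. In KO against HET, Ndrg1 was -0.028 with the number term, -0.11 above 700 and -0.016 with limma voom, and Odc1 was 0.047 above 700. Leaving out 1 library gave -0.44 to 0.055 for Fkbp5 and -0.0026 to 0.055 for Odc1 in HET against WT, and -0.028 to 0.048 for Ndrg1 in KO against HET. The cause was not tested.

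Leaving out 1 library gave 5 to 20 called prostate genes, 0 to 2 epididymal and 1 to 2 kidney genes in KO against WT, and 0 to 18, 0 to 3 and 0 to 2 in KO against HET. In the same fits 318 to 2923 genes passed over all genes in KO against WT, and 0 to 2443 in KO against HET. Over all genes 1163 passed in KO against WT, against 1982 by DESeq2, 1634 by limma voom, 287 with the 2 genotypes alone, 177 with the number term, 0 above 700 and 2722 without KO-738 and HET-693. In KO against HET it was 380, against 1258 by DESeq2, 1907 by limma voom, 362 with the number term, 0 with the 2 genotypes alone, 0 above 700 and 1660 without both libraries. No paired analysis was possible because the genotypes share no replicate numbers.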
